A study of Macaca mulatta with 24 samples.

Results

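The colon of 4 rhesus macaques taken 4 days after a single total-body irradiation (TBI) with 6.7 Gy was compared with the colon of 4 unirradiated macaques, which makes 8 of the 24 samples of the series. The groups were taken from the sample titles, which give day 4 and either the dose or the word control, and the labels number the animals of each group from 1 to 4. All animals were young adult males, each gave 1 array, and nothing was pooled. The irradiated animals received cobalt-60 gamma rays to the whole body and the controls received none, and no group carried a drug, a transgene or a deletion. The other 16 samples were taken at day 4 after 7.4 Gy, at day 7 or at day 12, and 2 of those groups are used at the end as points of reference. Each sample was a piece of the whole gut wall, so the RNA came from epithelium, immune cells, vessels, nerves and muscle together, and a lower level in such a sample cannot be told apart as fewer cells of a type or as less RNA per cell.

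The lining of the colon is renewed without pause from dividing cells at the base of the crypts, whose daughters move up and become absorptive colonocytes, mucus-secreting goblet cells or hormone-secreting enteroendocrine cells. Ionizing radiation breaks DNA, and the transcription factor p53 answers such breaks by raising genes that stop division, repair DNA or start cell death. Loss of crypt cells thins the barrier between the gut contents and the tissue, and barrier damage is known to be followed by chemokines that call in neutrophils, by antimicrobial proteins and by enzymes that remodel the matrix.

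All levels below are log2 of the Cy3 signal relative to the 75th percentile of the same array, so a difference of 1 is a 2-fold difference, and all changes are relative to that percentile. On the 8 arrays the share of probes that cleared background ranged from 70.3% to 81.2%, and no probe was saturated. The 75th percentile lay between 558 and 756 intensity units in the controls and between 785 and 947 after irradiation, so it did not overlap between the groups. Pearson correlations across probes, which are not independent replicates, were 0.968 to 0.978 among controls, 0.957 to 0.976 among irradiated animals and 0.949 to 0.966 between the groups. The layout was not balanced. All 4 controls lay at array position 1, irradiated replicates 1 and 2 at position 1 on 2 slides without a control and scanned on the second day, and irradiated replicates 3 and 4 at position 2 beside control replicates 1 and 2, scanned on the first day. Of 11 colon epithelial markers 10 were tested and all 10 were well above background on all 4 control arrays, among them CDX1, CDX2, MUC2, EPCAM and CDH17. The 3 tested small intestinal markers were so too, with control means of 1.06 for RBP2, -2.97 for FABP6 and -3.64 for LCT. The lowest colon marker, CA1, was at 0.92, so presence above background does not tell colon from small intestine. After irradiation CA1 was above background on 2 of the 4 arrays, SLC26A3 on the 3 with a value and the other 8 colon markers on all 4. Of the 10 colon markers 5 were lower and none was higher.

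Of 35308 probes tested, 1437 (4.07%) were called, at a Benjamini-Hochberg adjusted p under 0.05 in limma and at least a 2-fold change, with 719 higher (2.04%) and 718 lower (2.03%) after irradiation. Represented by its brightest tested probe, a gene was called in 599 of 12788 cases (4.68%), with 326 higher (2.55%) and 273 lower (2.13%). The arrays of the groups did not overlap for 515 of the 599 called genes, against 2386 of all genes tested (18.7%), which include the 515. The calls rest on the same arrays, so this lack of overlap follows in large part from the call. Of 189 called genes with further tested probes, 176 (93.1%) had the same sign on every probe, 111 (58.7%) had at least 1 more probe called the same way, and none had a probe called the other way. Within array position 1, where irradiated replicates 1 and 2 met all controls, 1698 probes were called. Within the 2 slides that held both groups, irradiated replicates 3 and 4 met control replicates 1 and 2 alone, and 443 were called. Of the 1437 called probes 1436 kept their sign there. The same arrays entered the calls, so the kept sign follows largely from the choice of probes and is not a separate check. Group and array position cannot be told apart within those slides, and the smaller number of animals limits the calls as well. With array position as a block the count was 1637, with slide 988 and with scan day 1430. Because all controls lay at position 1, the position block also took the change from irradiated replicates 1 and 2. It is therefore not a separate check from array position 1 alone. Scaling to the spike-in probes in place of the 75th percentile shifted the median change of all probes from -0.07 to 0.15 and moved the split to 1385 higher and 400 lower.

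**Figure D1:**
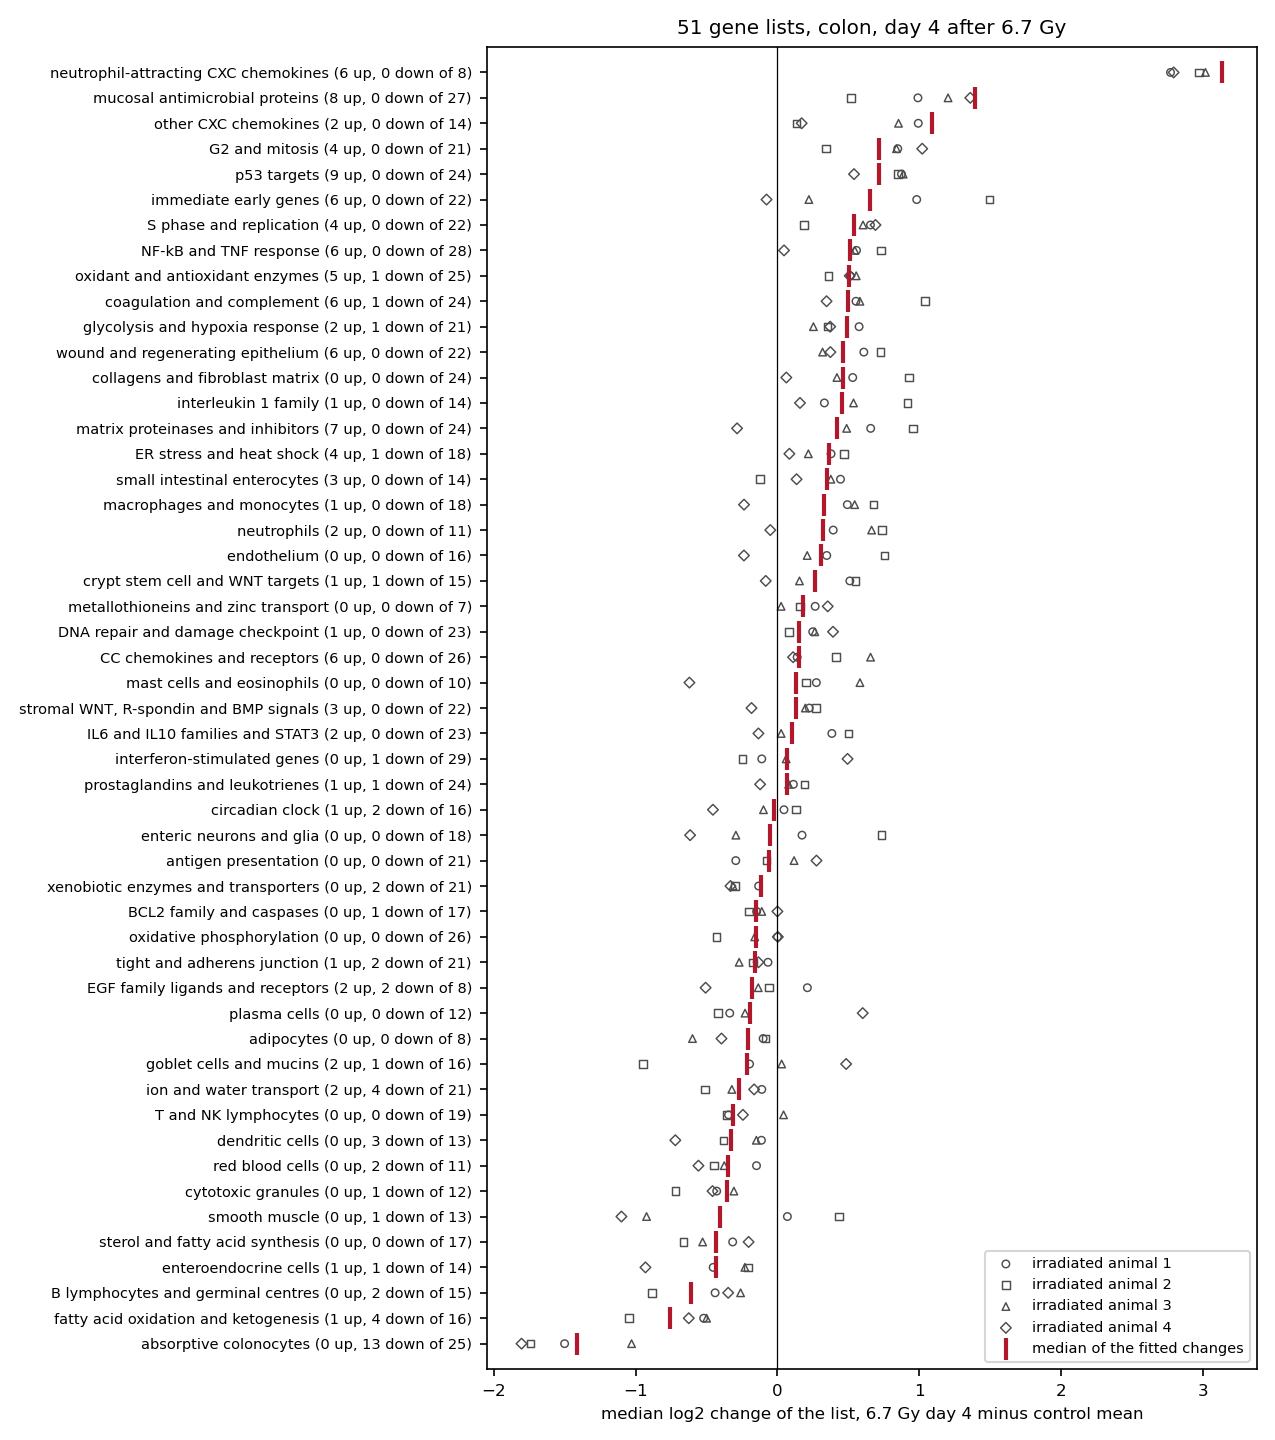
Median log2 change of 51 gene lists at day 4 after 6.7 Gy (x axis, log2, irradiated minus the control mean), 1 line per list with the counts of called members, open symbols for the 4 irradiated animals and a red bar for the median of the fitted changes. The neutrophil-attracting CXC chemokines sit at 3.14 and the absorptive colonocyte genes at -1.41, with all 4 animals on the same side of 0 in each.

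The genes were read in 51 lists, 1 for each of the cell types, pathways and families that the colon wall could hold. The median change over all genes was -0.04. The list medians ran from -1.41 for absorptive colonocytes to 3.14 for the neutrophil-attracting CXC chemokines, as the plot of list medians shows. By share of members called, the lists that rose most were the CXC chemokines (6 of 8), the p53 targets (9 of 24), the mucosal antimicrobial proteins (8 of 27) and the matrix proteinases and their inhibitors (7 of 24), where 2.55% of all genes rose. Absorptive colonocyte genes fell in 13 of 25 cases, where 2.13% of all genes fell. Counts in the later paragraphs stand against the same shares, also where these are not repeated. A single called member says little about its list. Some members below background in every control passed the filter through the irradiated arrays alone, which favours a rise.

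**Figure D2:**
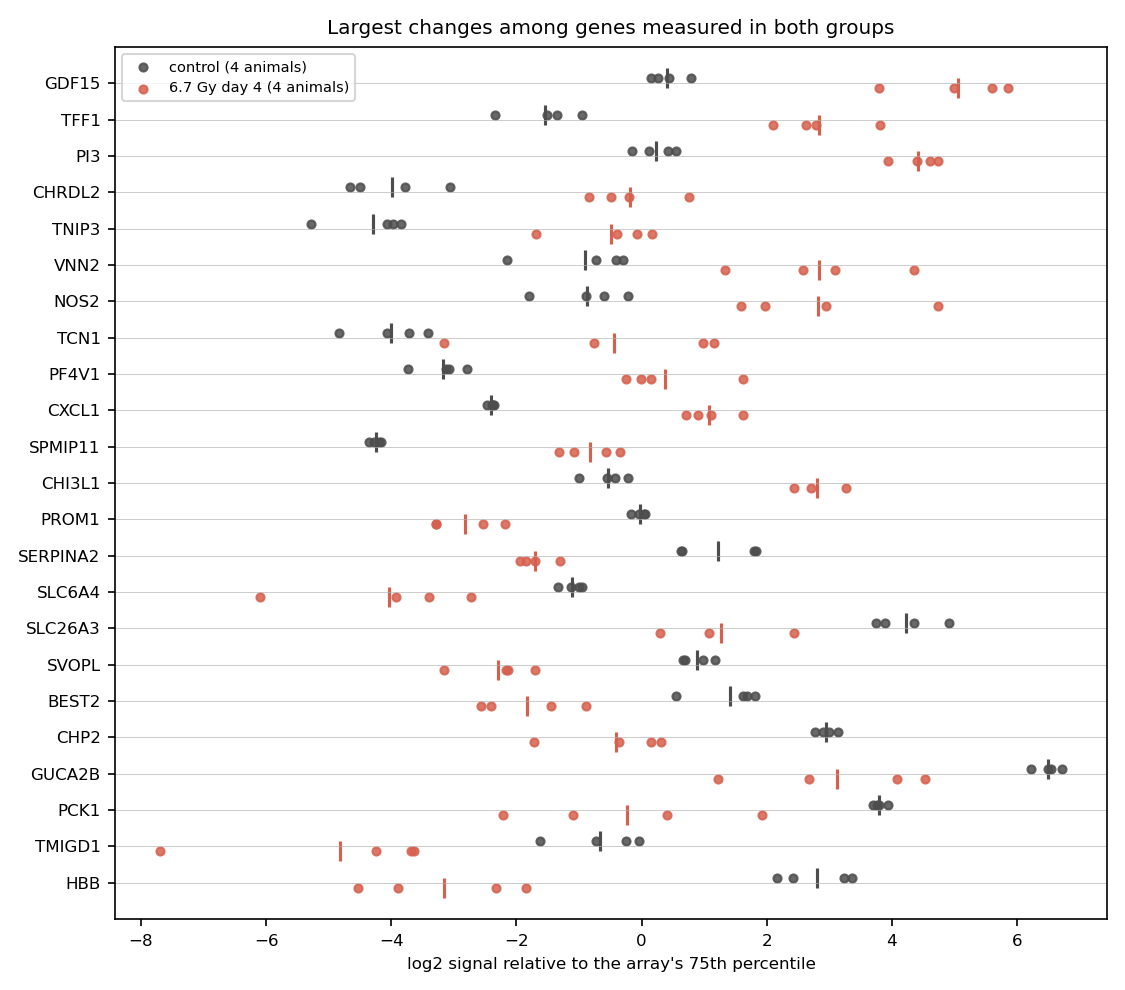
Log2 level relative to the 75th percentile of the array (x axis) of the 12 genes with the highest and 11 of the 12 with the lowest change among called genes measured in both groups without overlap, each point an animal and each bar a group mean (n = 4, fewer where a spot was left out). GDF15 rose by 4.65 and HBB fell by 5.95, and the 2 groups are apart in every line.

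Targets of p53 rose. Of 24 tested members 9 were called higher (37.5%, against 2.55% of all genes), none lower, and 22 had a positive change, with a list median of 0.71. The medians of the single irradiated animals were 0.87, 0.85, 0.89 and 0.54. GDF15, a secreted stress cytokine of the TGF-beta family, stood at 0.79, 0.43, 0.26 and 0.15 in control replicates 1 to 4 and at 5.60, 5.86, 4.99 and 3.79 in irradiated replicates 1 to 4. Every irradiated animal lay far above every control, and the change of 4.65 ± 0.40 (log2, SE; 25.2-fold, adjusted p = 2.08e-06) was the largest rise among genes well above background on at least 3 arrays of each group and without overlap. EDA2R, a transmembrane receptor of the TNF receptor family, was at -1.51, -1.46, -1.32 and -2.02 in the controls and at 1.13, 1.21, 0.77 and -0.06 after irradiation (2.34 ± 0.23, adjusted p = 1.41e-05). Its groups did not overlap, and neither did those of ZMAT3, an RNA-binding p53 target (2.08 ± 0.15, adjusted p = 1.29e-07), which lay between -5.29 and -4.45 in the controls and between -3.0 and -2.58 after irradiation. PLK2, a kinase of the cell cycle, rose by 2.75 ± 0.48 (adjusted p = 0.00197).

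Other p53 targets moved less. DDB2, which recognizes damaged DNA, lay within 2.09 and 2.18 in the 4 controls and at 3.96, 3.48, 3.72 and 3.42 after irradiation (1.52 ± 0.18, adjusted p = 7.01e-05). CDKN1A, which encodes the cell cycle inhibitor p21, rose by 1.27 ± 0.22 (adjusted p = 0.00219), and both were picked for description after their values were seen. BAX, which opens mitochondria in cell death, was at 1.45 to 1.56 in the controls and at 2.34 to 2.72 after irradiation, a change of 0.98 ± 0.13 that passed the p threshold (adjusted p = 0.000238) but stayed under 2-fold, while 2 of its 3 probes were called. MDM2, the p53 inhibitor, changed by 0.37 ± 0.15 (adjusted p = 0.105) on its brightest probe and was called on the other probe, at 1.17. The number of p53 targets called was between 5 and 11 over all alternatives, with 10 within array position 1 and 5 within the slides that held both groups. Of the 17 members of the BCL2 and caspase list none was higher and 1 was lower (5.88%, against 2.13% of all genes). This was BCL2L14 (-1.02 ± 0.32, adjusted p = 0.0432), whose call was lost without control replicate 1, 3 or 4 or irradiated replicate 1 or 2 (adjusted p 0.0629 to 0.137). DNA repair and damage checkpoint genes had 1 of 23 higher (4.35%, against 2.55% of all genes). It was RAD51C, a homologous recombination factor (1.04 ± 0.22, adjusted p = 0.007), on 3 irradiated arrays since replicate 3 was left out as an outlier spot. Its change came below 2-fold without irradiated replicate 1 (0.95) or control replicate 1, where it rounds to 1.0. ATM and BRCA1 changed by -0.14 ± 0.33 and 0.11 ± 0.24 and were not called.

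**Figure D3:**
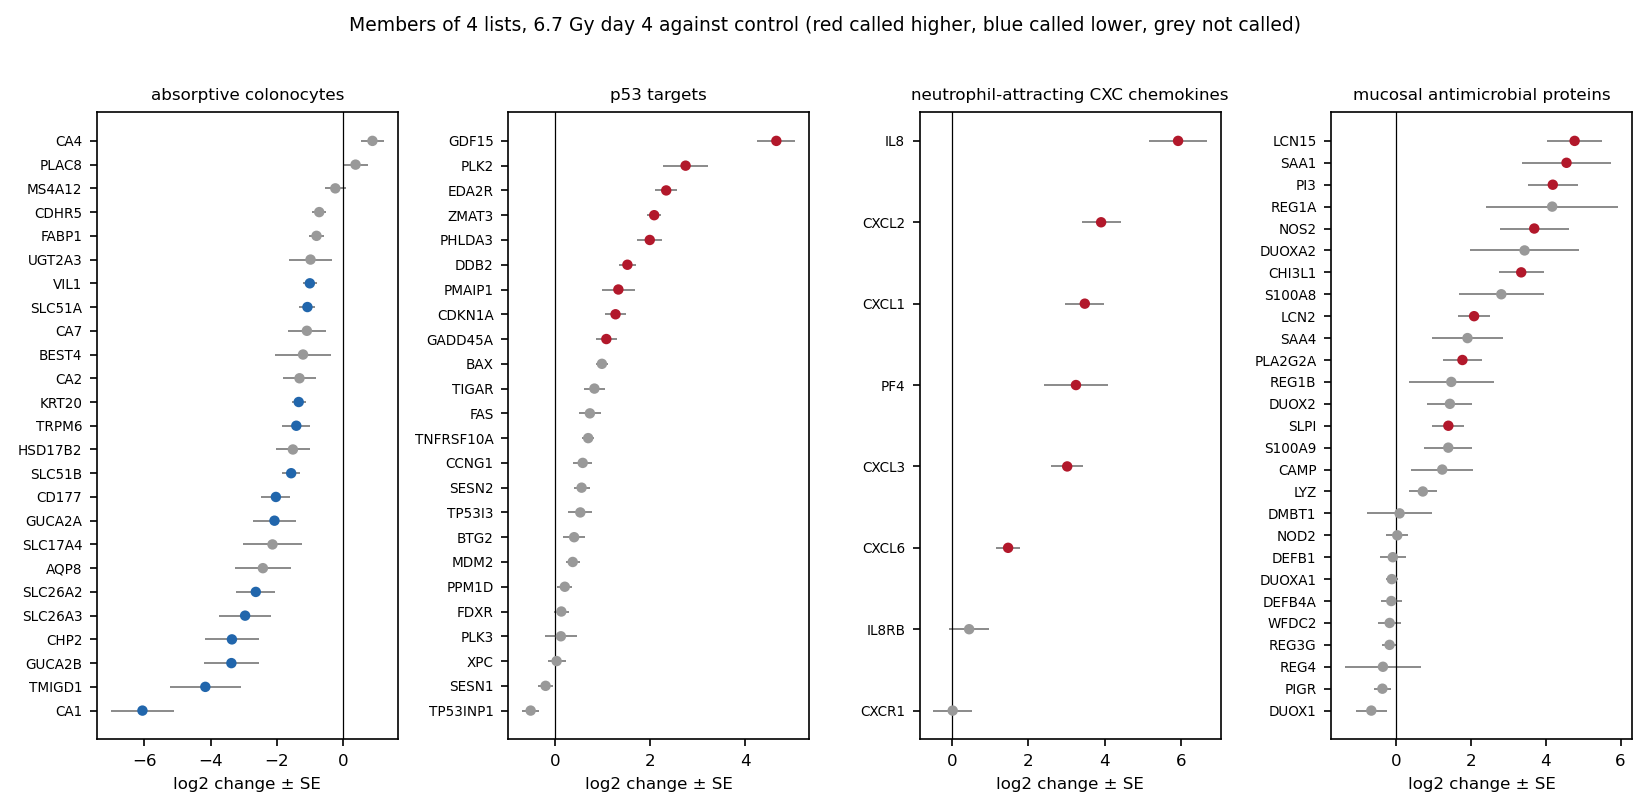
Log2 change ± SE (x axis, irradiated minus control, limma over all 24 arrays) of every tested member of 4 lists, red where called higher, blue where called lower and grey where not called, with its own scale in each panel. Called members lie on 1 side only in each list: 13 lower of 25 colonocyte genes, 9 higher of 24 p53 targets, 6 higher of 8 CXC chemokines and receptors, and 8 higher of 27 antimicrobial proteins.

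Genes of mature absorptive colonocytes were lower. None of the 25 was higher and 23 had a negative change, with a median of -1.41 and animal medians of -1.5, -1.74, -1.03 and -1.80. CA1, the colonic carbonic anhydrase, was at 1.03, 0.67, 1.31 and 0.67 in the controls and at -4.17, -3.22, -5.45 and -7.70 after irradiation, where 2 of the 4 arrays were above background (-6.06 ± 0.96, adjusted p = 0.00097). GUCA2B, the uroguanylin hormone that acts on the guanylyl cyclase of the epithelium, was at 6.49, 6.22, 6.54 and 6.72 in the controls and at 4.08, 2.67, 4.52 and 1.22 after irradiation (-3.37 ± 0.83, adjusted p = 0.0142). Control values of both genes lay close together, while the irradiated animals spread widely, with replicate 4 the lowest in each.

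Structural genes of these cells were among the 13. KRT20, a keratin of surface colonocytes, fell from between 6.10 and 6.58 to between 4.54 and 5.33 (-1.34 ± 0.21, adjusted p = 0.00097), and VIL1, which bundles actin in microvilli, fell from between 1.55 and 2.06 to between 0.31 and 1.12 (-1.0 ± 0.20, adjusted p = 0.0048). Both, and SLC26A2, a sulfate carrier (-2.63 ± 0.59, adjusted p = 0.00826), were picked after their values were seen. The chloride-bicarbonate exchanger SLC26A3 fell by 2.96 ± 0.79 (adjusted p = 0.0223), with 3 irradiated arrays since replicate 3 was an outlier spot, and TMIGD1, an adhesion protein of the brush border, by 4.16 ± 1.06 (adjusted p = 0.017). CHP2, which binds the sodium-proton exchangers, fell by 3.35 ± 0.81 (adjusted p = 0.0128). Other colonocyte genes did not pass. CA4, another carbonic anhydrase, was at 4.01 to 4.96 in the controls and 4.80 to 6.04 after irradiation (0.89 ± 0.35, adjusted p = 0.103), and AQP8, a water channel, at 7.03 to 8.34 and 3.33 to 6.59 (-2.42 ± 0.84, adjusted p = 0.0684). Leaving out irradiated replicate 2 cut the called members to 8. The SLC26A3 call was lost without control replicate 1 (adjusted p = 0.057), irradiated replicate 2 (0.0878) or 4 (0.054), the TMIGD1 call without irradiated replicate 4 (0.0512), and the VIL1 change came below 2-fold without control replicate 1 (-0.96) or 2 (-0.94) or irradiated replicate 2 (-0.82). With array position as a block 9 members were called, and 1 within the slides that held both groups, where the median was -1.34.

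Transporters and channels outside that list went both ways, with 2 higher and 4 lower of 21. BEST2, a bicarbonate channel of colonic goblet cells that entered by its size of change, was at 1.69, 0.54, 1.62 and 1.81 in the controls and at -0.89, -2.57, -2.40 and -1.44 after irradiation (-3.24 ± 0.73, adjusted p = 0.00885). Among the members called lower were HSD11B2, which protects the mineralocorticoid receptor from cortisol (-1.58 ± 0.39, adjusted p = 0.0138), NR3C2, that receptor (-1.33 ± 0.29, adjusted p = 0.00672), and SCNN1A, a subunit of the epithelial sodium channel (-1.35 ± 0.42, adjusted p = 0.0418). SLC4A4, a bicarbonate cotransporter, fell by 1.51 ± 0.37 (adjusted p = 0.0132). KCNE3, a potassium channel subunit of the crypt, went the other way, from between -2.24 and -1.79 to between -0.74 and -0.26 (1.40 ± 0.24, adjusted p = 0.00156). SCNN1G, another sodium channel subunit, rose by 2.15 ± 0.70 (adjusted p = 0.0497). Of these, the SCNN1A call was lost without control replicate 1, 2 or 4 or irradiated replicate 2, 3 or 4 (adjusted p 0.0579 to 0.118), and the SCNN1G call without any single array but irradiated replicate 4 (0.0538 to 0.147). CFTR and AQP3 changed by -0.45 ± 0.35 and -0.70 ± 0.28 and were not called. Within the slides that held both groups no member of this list was called, and with slide as a block 1 was higher and 2 were lower.

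Of 16 tested members of the fatty acid oxidation list 4 were lower (25%, against 2.13% of all genes) and 1 higher (6.25%, against 2.55%). The list median was -0.75. Colonocytes live on butyrate, which enters through monocarboxylate carriers and is burnt in mitochondria. SLC16A1, such a carrier, was at 2.44, 2.51, 2.42 and 2.68 in the controls and at 0.23, -0.16, 0.80 and 0.39 after irradiation, with no overlap (-2.20 ± 0.33, 4.59-fold lower, adjusted p = 0.000565). PCK1, the gate enzyme of gluconeogenesis, was at 3.80, 3.93, 3.71 and 3.76 in the controls and at 0.41, -1.09, 1.93 and -2.21 after irradiation (-4.04 ± 0.97, adjusted p = 0.0124). The controls lay close together and the irradiated animals far apart, with replicate 3 the nearest to the controls. HADH, of beta-oxidation, and ETFDH, which passes its electrons on, fell by 1.14 ± 0.24 (adjusted p = 0.00677) and 1.09 ± 0.28 (adjusted p = 0.0164), the latter coming below 2-fold without irradiated replicate 2 (-0.91, adjusted p = 0.0546) or control replicate 2 (-0.996). PDK4, which holds pyruvate back from the mitochondria, rose by 1.30 ± 0.31 (adjusted p = 0.0123). With slide as a block 2 members of the list were lower, as with spike-in scaling, and none was called within the slides that held both groups.

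No member of the sterol and fatty acid synthesis list (17 tested, median -0.43) or of oxidative phosphorylation (26 tested, median -0.15, turning to 0.07 with spike-in scaling) was called. Of 21 genes of glycolysis and the hypoxia response 2 were higher and 1 lower, among them ADM, a vasodilator peptide (1.51 ± 0.44, adjusted p = 0.0313), ANGPTL4, an inhibitor of lipoprotein lipase (1.42 ± 0.31, adjusted p = 0.00713), and CA12, a carbonic anhydrase (-1.57 ± 0.38, adjusted p = 0.0122). The ADM call was lost without control replicate 2 or 4 or irradiated replicate 2 or 4 (adjusted p 0.0586 to 0.101). Of 21 xenobiotic genes 2 fell, ABCB1, the P-glycoprotein drug pump (-2.03 ± 0.46, adjusted p = 0.00904), and CYP4F12, a P450 enzyme (-1.42 ± 0.24, adjusted p = 0.0017). CYP1A1 spread widely in both groups, from -0.63 to 3.11 and from -5.85 to -0.38, and did not pass (-4.30 ± 1.5, adjusted p = 0.0684).

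Chemokines that attract neutrophils rose together. Of the 8 tested ligands and receptors of the list, which counts the platelet chemokine PF4 among them, 6 were higher. The list median was 3.14, with animal medians of 2.77, 2.97, 3.02 and 2.79. CXCL1 was at -2.37, -2.40, -2.36 and -2.47 in the controls and at 1.11, 1.61, 0.90 and 0.70 after irradiation (3.48 ± 0.51, 11.2-fold, adjusted p = 0.00055). CXCL2 was at -5.27, -4.04, -5.31 and -3.86 in the controls, 2 of them above background, and at -0.45, -0.72, -0.86 and -0.82 after irradiation (3.91 ± 0.51, adjusted p = 0.000238). CXCL3 rose from between -1.34 and -1.19 to between 1.22 and 2.24 (3.02 ± 0.42, adjusted p = 0.000349). For these 3 ligands every irradiated animal lay above every control, and their calls held under all alternatives in which they were tested. PF4, a platelet chemokine, rose by 3.25 ± 0.83 (adjusted p = 0.0165) and lost its call without control replicate 1 (adjusted p = 0.0578), and CXCL6, picked after its values were seen, rose by 1.47 ± 0.31 (adjusted p = 0.00645). The remaining called ligand was IL8 (now CXCL8; 5.93 ± 0.76, adjusted p = 0.000201), above background on 1 control array. The receptor CXCR1 changed by 0.02 ± 0.51 and was not called.

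Markers of neutrophils themselves were called in a smaller share than the chemokines. Of 11 tested markers 9 had a positive change and 2 were called higher (18.2%, against 2.55% of all genes). These were FCGR3, an Fc receptor (1.73 ± 0.34, adjusted p = 0.00413), and VNN2, a pantetheinase (3.74 ± 0.75, adjusted p = 0.00441). The summed level of the list, as log2 of the added linear levels of its members, was 2.92 to 3.23 in the controls and 3.19 to 4.92 after irradiation, and the median change was 0.33. FPR1, a peptide receptor of neutrophils, was at -2.37 to -1.31 in the controls and -3.14 to -0.31 after irradiation (0.33 ± 0.47, adjusted p = 0.698). CSF3R, the G-CSF receptor, changed by -0.34 ± 0.14 on its brightest probe (adjusted p = 0.122) and by 1.37 on another, which was called. The part of neutrophil number in the chemokine result was not tested.

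Other chemokines rose in fewer cases: 2 of 14 other CXC members, CXCL14 (1.37 ± 0.32, adjusted p = 0.0105, without irradiated replicate 2, an outlier spot) and CXCL16 (1.73 ± 0.41, adjusted p = 0.0112), and 6 of 26 CC members. The shares were 14.3% of the other CXC and 23.1% of the CC members, against 2.55% of all genes. With slide as a block 2 CC members were higher and within the slides that held both groups 1, and with position and scan day as blocks 3 were higher and the list median turned from 0.15 to -0.09. The other CXC members had no call with slide as a block or within those slides. CCL20, which attracts cells bearing CCR6, was at -1.44, -2.03, -0.71 and -0.91 in the controls and at 2.04, 1.15, 3.15 and 1.34 after irradiation (3.19 ± 0.62, 9.16-fold, adjusted p = 0.00386). CCL2, which draws monocytes and was picked after its values were seen, rose by 1.93 ± 0.38 (adjusted p = 0.00413). CCL19, a lymph node chemokine, overlapped between the groups (2.14 ± 0.59, adjusted p = 0.025) and lost its call without control replicate 1 (adjusted p = 0.081) or irradiated replicate 1 (0.0522) or 3 (0.0811). CXCL10, which interferon induces, changed by 1.41 ± 0.69 (adjusted p = 0.187).

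Of 28 genes of the NF-kB and TNF response 6 were higher (21.4%, against 2.55% of all genes), with a median of 0.51. The count was 10 without irradiated replicate 3 or within array position 1, and 3 within the slides that held both groups. IER3, a survival factor, rose from between -0.59 and -0.02 to between 0.92 and 2.86 (2.07 ± 0.38, adjusted p = 0.00261). VCAM1, by which leukocytes adhere to vessels, was at 0.68, 0.16, 0.84 and 0.90 in the controls and at 2.01, 2.27, 2.36 and 1.53 after irradiation (1.40 ± 0.24, adjusted p = 0.00157), and its call held under all alternatives. SOD2, the mitochondrial superoxide dismutase, and BIRC3, an inhibitor of apoptosis, rose by 1.52 ± 0.37 (adjusted p = 0.0132) and 1.33 ± 0.27 (adjusted p = 0.00527). TNIP3, a partner of the NF-kB inhibitor A20 that entered by its size of change, rose from between -5.28 and -3.85 to between -1.69 and 0.17 (3.80 ± 0.50, 13.9-fold, adjusted p = 0.000238). TNF itself was at -1.92 to -0.55 in the controls and -1.22 to -0.13 after irradiation (0.61 ± 0.38, adjusted p = 0.31), and NFKBIA changed by 0.37 ± 0.22. Of the interleukin 1 family 1 of 14 was higher, IL1A (3.76 ± 0.75, adjusted p = 0.00438), and IL1B changed by 1.57 ± 0.66 (adjusted p = 0.124). Of the IL6 and IL10 families 2 of 23 were higher, CLCF1, a ligand (2.16 ± 0.43, adjusted p = 0.00428), and OSMR, the oncostatin M receptor (1.49 ± 0.27, adjusted p = 0.00224), while IL6 changed by 0.55 ± 0.58.

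Proteins of mucosal defence rose in 8 of 27 cases (29.6%, against 2.55% of all genes), with none lower and a median of 1.40. Of the 27, 2 were above background on no control array, SAA1 among them. These passed the filter through the irradiated arrays alone and could hardly come out lower. The animal medians were 0.99, 0.52, 1.20 and 1.36. PI3, the elastase inhibitor elafin, was at 0.11, -0.16, 0.42 and 0.55 in the controls and at 4.74, 3.94, 4.40 and 4.60 after irradiation (4.19 ± 0.66, 18.2-fold, adjusted p = 0.00097). NOS2, the inducible nitric oxide synthase, was at -1.80, -0.61, -0.22 and -0.89 in the controls and at 2.94, 1.59, 1.98 and 4.74 after irradiation (3.69 ± 0.92, adjusted p = 0.0145). PI3 was even among the irradiated animals, whereas NOS2 spread widely, with replicate 4 the highest.

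SAA1, an acute phase protein, was above background on no control array and on all 4 irradiated arrays, at least 11.3-fold higher (adjusted p = 0.0197), with the other probes of the gene changing by as little as 0.62, and its call was lost without control replicate 3 (adjusted p = 0.0512) or irradiated replicate 4 (0.0588). CHI3L1, a chitinase-like protein, rose by 3.34 ± 0.60 (adjusted p = 0.00267) on the 3 irradiated arrays left after an outlier spot in replicate 4. S100A8, S100A9 and REG1A spread widely after irradiation, S100A8 from -4.87 to 0.33, S100A9 from -1.62 to 1.39 and REG1A from -4.74 to 2.60, and were not called. Without control replicate 3 the list had 5 called members, within array position 1 it had 5, within the slides that held both groups 4, and within array position 1 on the second scan day 1 higher and 1 lower.

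Of 25 oxidant and antioxidant enzymes 5 were higher (20%, against 2.55% of all genes) and 1 lower (4%, against 2.13%). Within the slides that held both groups 2 were higher. GPX2, the glutathione peroxidase of the gut epithelium, was at 3.50, 3.69, 3.99 and 4.02 in the controls and at 6.27, 6.12, 6.21 and 6.30 after irradiation (2.42 ± 0.33, 5.36-fold, adjusted p = 0.000385). The irradiated values lay closer together than the controls, and the call held under all alternatives. TXN, thioredoxin, rose by 1.52 ± 0.35 on its brightest probe (adjusted p = 0.0104), with all 3 of its probes called, and SLC7A11, the cystine carrier, by 2.08 ± 0.40 (adjusted p = 0.00351). PRDX6, a peroxiredoxin, fell by 1.40 ± 0.34 (adjusted p = 0.0128), on both of its probes. HMOX1 and NQO1 changed by 0.14 ± 0.31 and 0.96 ± 0.26 and were not called on their brightest probes.

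Genes of the epithelial edge of a wound rose in 6 of 22 cases (27.3%, against 2.55% of all genes), with a median of 0.46. With slide as a block, or within the slides that held both groups, 1 was higher. ANXA3, an annexin, was at -2.10, -2.75, -3.06 and -2.72 in the controls and at 0.04, 0.29, -0.10 and -0.70 after irradiation (2.54 ± 0.33, adjusted p = 0.00023), and its call held under all alternatives. CTGF (now CCN2) and CYR61 (now CCN1), both YAP targets and matrix proteins, rose by 2.18 ± 0.57 (adjusted p = 0.0194) and 1.96 ± 0.50 (adjusted p = 0.0162), and irradiated replicate 2 was the highest in each, at 0.02 and 1.5. Without that replicate their calls were lost (adjusted p = 0.0652 and 0.0541) and the list had 3 called members, and the CTGF call was also lost without control replicate 4 (0.0606). KRT80, a keratin, rose by 1.78 ± 0.44 (adjusted p = 0.0144). CLU, a marker of regenerating crypts in mice, was at 3.13, 1.80 and 1.22 on the 3 irradiated arrays with a value and between 1.48 and 1.76 in the controls, and was not called. TFF1, a trefoil peptide better known from the stomach, was at -1.52, -0.95, -2.34 and -1.35 in the controls and at 2.63, 3.81, 2.79 and 2.10 after irradiation (4.37 ± 0.94, 20.7-fold, adjusted p = 0.00678).

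Ligands of the EGF family split. EREG, epiregulin, was at -5.77, -6.68, -6.54 and -5.75 in the controls, with 1 array above background, and at -1.11, 0.21, -2.94 and -4.59 after irradiation (4.08 ± 0.79, adjusted p = 0.00356). NRG1, neuregulin 1, was at 0.20, 0.13, -0.58 and -0.31 in the controls and at 2.45, 3.04, 1.96 and 1.30 after irradiation (2.33 ± 0.43, 5.02-fold, adjusted p = 0.00281), and 3 of its 5 probes were called. In both genes irradiated replicate 2 was the highest and replicate 4 the lowest, without reaching the controls. The ligand NRG4 and the receptor ERBB2 went the other way, by -1.47 ± 0.36 (adjusted p = 0.0131) and -1.27 ± 0.28 (adjusted p = 0.0071).

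Crypt stem cell and WNT target genes had 1 of 15 higher and 1 lower. PROM1, which marks crypt progenitors, was at 0.03, -0.05, 0.05 and -0.16 in the controls and at -2.18, -3.28, -2.53 and -3.28 after irradiation (-2.79 ± 0.46, 6.90-fold lower, adjusted p = 0.00135), and all 4 of its probes were called. LEF1, a transcription factor of WNT signalling, rose by 1.45 ± 0.25 (adjusted p = 0.00162). LGR5, the receptor that defines the crypt base stem cell, was at -2.65 to -2.50 in the controls and at -2.71, -2.32, -3.63 and -2.90 after irradiation (-0.32 ± 0.19, adjusted p = 0.287). SOX9 and ASCL2 changed by 0.85 ± 0.24 and 0.94 ± 0.28, with adjusted p of 0.0247 and 0.0381 but under 2-fold.

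Secretory genes of the epithelium went both ways, with 2 higher and 1 lower of 16 goblet cell and mucin genes (18.75% called). Of 14 enteroendocrine genes 1 was higher and 1 lower (14.3% called), against 4.68% called of all genes. MUC2, the main mucin of the colon, was at 4.09 to 4.25 in the controls and at 4.06, 3.32, 4.49 and 4.66 after irradiation (-0.07 ± 0.33), and TFF3 changed by -0.41 ± 0.36. ATOH1, the factor that sets the secretory lineage, was lower (-1.32 ± 0.38, adjusted p = 0.0288) with overlap between the groups, and its call was lost without control replicate 1 or 3 or irradiated replicate 1, 2 or 3 (adjusted p 0.0508 to 0.0857). PCSK1, a prohormone convertase, rose by 1.60 ± 0.29 (adjusted p = 0.00244), and GIP, an incretin, fell by 2.45 ± 0.59 (adjusted p = 0.0126). PYY and CHGA changed by -1.04 ± 0.38 and 0.60 ± 0.26, the latter on 3 controls since replicate 1 was an outlier spot, and were not called. SLC6A4, the serotonin carrier of the epithelium, fell by 2.93 ± 0.74 (adjusted p = 0.016).

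Of 21 tight and adherens junction genes 1 was higher, CLDN2 (4.76%, against 2.55% of all genes). The 2 lower were CLDN8 and TJP3 (9.52%, against 2.13% of all genes). OCLN, occludin, changed by -0.99 ± 0.19 (adjusted p = 0.00383), just under 2-fold. TJP3, a scaffold of the junction, fell by 1.04 ± 0.28 (adjusted p = 0.0209) and lost its call without control replicate 3 or 4 or irradiated replicate 2 (adjusted p = 0.0513, 0.053 and 0.0675). The CLDN8 call (-2.01 ± 0.55, adjusted p = 0.0237) was lost without control replicate 1 or 3 or irradiated replicate 2 (adjusted p = 0.0644, 0.0539 and 0.0641). Of 14 genes of small intestinal enterocytes 3 were higher, against 1 with array position as a block, and none of the 3 tested small intestinal markers of the label check (FABP6, LCT and RBP2) was called. SLC5A1, the sodium-glucose carrier, rose from between -4.36 and -3.32 to between -2.79 and -1.33 (2.08 ± 0.41, adjusted p = 0.00387).

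Called cell division genes were all higher. Of 22 S phase genes 4 were higher (18.2%, against 2.55% of all genes), none was lower and 19 had a positive change (median 0.54). Of 21 G2 and mitosis genes 4 were higher (19.0%), none lower and 20 positive (median 0.72). UHRF1, a maintenance factor of DNA methylation, rose from between -1.39 and -0.61 to between -0.20 and 0.24 (1.22 ± 0.29, adjusted p = 0.0122). GINS1, a part of the replicative helicase, rose by 1.46 ± 0.27 (adjusted p = 0.00281), and TYMS, thymidylate synthase, by 1.16 ± 0.25 (adjusted p = 0.00754) on all 4 of its probes. CCNA2, the S and G2 cyclin, rose by 1.12 ± 0.31 (adjusted p = 0.0249). PCNA, the replication clamp, changed by 0.73 ± 0.21 (adjusted p = 0.0294) without overlap but under 2-fold, CCNB1 by 0.84 ± 0.29 (adjusted p = 0.0604) and TOP2A by 0.43 ± 0.30 (adjusted p = 0.377). The animal medians of the mitosis list were 0.85, 0.34, 0.84 and 1.02. None of its members was called without control replicate 1 or irradiated replicate 1, 3 or 4, with array position as a block or within array position 1, where the median was 0.59. The S phase list had 2 called members without irradiated replicate 4, where TYMS changed by 0.99, 1 with array position as a block, within array position 1 or within the slides that held both groups, and none with position and scan day as blocks. The CCNA2 call was lost without control replicate 1 or 4 or irradiated replicate 1, 3 or 4 (adjusted p 0.0513 to 0.0718).

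Immediate early genes differed between the animals. The list had 6 of 22 higher and a median of 0.66, made up of 0.98 and 1.5 in irradiated replicates 1 and 2, and 0.22 and -0.08 in replicates 3 and 4. NR4A2, a nuclear receptor, was at -3.43, -3.54, -4.35 and -3.81 in the controls and at -0.09, 1.39, -1.56 and -2.70 after irradiation (3.05 ± 0.69, adjusted p = 0.00878). EGR1, a zinc finger factor, was at -3.50, -4.43, -4.44 and -4.50 in the controls and at -0.74, -0.32, -2.11 and -4.18 after irradiation (2.38 ± 0.66, adjusted p = 0.0254). FOS was at 5.31, 5.44, 4.02 and 3.40 after irradiation against 2.96 to 3.52 in the controls and was not called. In all 3 genes irradiated replicate 4 was the lowest, and for EGR1 and FOS it overlapped the controls. This order coincides with array position, slide and scan day. Within array position 1, with replicates 1 and 2, 11 members were called at a median of 1.09, and within the slides that held both groups, with replicates 3 and 4, none was called at a median of 0.15. Animal and layout cannot be told apart here. The count was 3 without control replicate 1, 2 without control replicate 3 or 4, and 1 without irradiated replicate 1 or 2, and the EGR1 call was lost without control replicate 2, 3 or 4 or irradiated replicate 1 or 2 (adjusted p 0.0514 to 0.0833).

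Smooth muscle genes also differed between the animals. Of 13 tested 1 was lower and 12 had a negative change (median -0.40), with animal medians of 0.07, 0.44, -0.92 and -1.10. PLN, phospholamban, was the called member, at 0.67, 0.25, 0.50 and -0.21 in the controls and at -1.0, -0.43, -1.25 and -1.39 after irradiation (-1.32 ± 0.30, adjusted p = 0.0095). ACTG2, enteric actin, was at 8.21, 8.95, 7.28 and 6.71 after irradiation and between 8.01 and 8.79 in the controls (-0.66 ± 0.44, adjusted p = 0.342), and DES, desmin, changed by -0.53 ± 0.28. The summed level of the list was 9.20 to 9.85 in the controls and 8.05 to 9.85 after irradiation. The median was 0.23 within array position 1 and -1.22 within the slides that held both groups, where 5 members were lower. Its sign thus turned between these sets of arrays, which hold different irradiated animals, and animal and layout cannot be told apart here either. Enteric neuron and glia genes had animal medians of 0.17, 0.73, -0.29 and -0.62 and no call among 18. The part of smooth muscle levels in the other results was not tested.

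Enzymes of the matrix and their inhibitors rose in 7 of 24 cases, with none lower and animal medians of 0.66, 0.96, 0.49 and -0.28. With slide as a block, and within the slides that held both groups, 2 were higher and 1 was lower. MMP9, a gelatinase of neutrophils and macrophages, was at 3.15, 2.97, 3.61 and 4.36 in the controls and at 5.75, 5.94, 6.19 and 4.95 after irradiation (2.19 ± 0.32, adjusted p = 0.000492). ADAMTS1, which cleaves proteoglycans, rose by 2.17 ± 0.50 (adjusted p = 0.0101). TIMP1, an inhibitor of metalloproteinases picked after its values were seen, was at 4.81, 6.37, 4.24 and 4.42 after irradiation against 3.10 to 3.96 (1.62 ± 0.39, adjusted p = 0.0117). MMP1 and MMP3 ranged from 0.89 to 4.33 and from -2.45 to 2.48 after irradiation and were not called. No collagen or fibroblast matrix gene of 24 was called, and 21 had a positive change (median 0.46), with COL1A1 at 0.63 ± 0.23 and COL3A1 at 0.37 ± 0.29.

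Stromal signals to the crypt had 3 of 22 higher (13.6%, against 2.55% of all genes) and none lower. There was no call within the slides that held both groups, where the median turned from 0.13 to -0.16. GREM1, which blocks BMP, was at 2.11, 1.37, 1.32 and 0.70 in the controls and at 2.82, 3.53, 3.34 and 2.76 after irradiation (1.74 ± 0.32, adjusted p = 0.00255). BMP7 rose by 2.14 ± 0.35 (adjusted p = 0.0012), and RSPO3, a WNT amplifier, by 1.15 ± 0.28 (adjusted p = 0.0122), which came below 2-fold without irradiated replicate 2 (0.84). CHRDL2, a BMP antagonist that entered by its size of change, rose from between -4.66 and -3.06 to between -0.83 and 0.76 (3.80 ± 0.64, adjusted p = 0.00156), on all 3 of its probes. BMP4 changed by -0.14 ± 0.19.

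Coagulation and complement genes were higher in 6 of 24 cases (25%, against 2.55% of all genes) and lower in 1 (4.17%, against 2.13%). None was called within the slides that held both groups. CFB, factor B of the alternative complement pathway, was at -3.14, -3.11, -2.86 and -5.40 in the controls and at -1.49, -0.53, -0.92 and -1.15 after irradiation (2.61 ± 0.56, adjusted p = 0.00668). C3 rose by 1.61 ± 0.33 (adjusted p = 0.00483) with irradiated replicate 4, at 3.83, level with the highest control. TFPI2, a protease inhibitor, was above background on no control array and on all irradiated arrays, at least 11-fold higher (adjusted p = 0.0141). Endothelial markers had no call among 16: PECAM1 changed by -0.16 ± 0.20, and VWF by 0.80 ± 0.18 (adjusted p = 0.00989), under 2-fold.

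Most called members of the blood and immune cell lists that follow were lower. Among 11 red blood cell genes 2 were lower (18.2%, against 2.13% of all genes). HBB, the beta globin, was at 2.42, 2.17, 3.23 and 3.37 in the controls and at -2.32, -1.85, -4.53 and -3.90 after irradiation (-5.95 ± 0.64, adjusted p = 3.76e-05). HBA2, an alpha globin, was at 7.03 to 8.0 and 7.19 to 7.70 on its brightest probe (-0.22 ± 0.16, adjusted p = 0.394), while its other probe changed by -3.85 and was called. Globin genes are near-copies of each other, so which gene a globin probe reads is uncertain. ALAS2, the heme enzyme of red cell precursors, was above background on 3 controls and no irradiated array, at least 1.49-fold lower (adjusted p = 0.0213), and its call was lost without control replicate 1, 3 or 4 or irradiated replicate 2 (adjusted p 0.051 to 0.0684). The summed level of the list was 7.10 to 8.06 in the controls and 7.21 to 7.71 after irradiation.

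B lymphocyte and germinal centre genes had 2 of 15 lower and a median of -0.61. RGS13, a germinal centre regulator, was at -1.74, -3.89, -1.61 and -0.37 in the controls and at -4.84, -4.24, -3.54 and -6.43 after irradiation (-2.86 ± 0.81, adjusted p = 0.0282), with overlap. Its call was lost without control replicate 1, 3 or 4 or irradiated replicate 1 or 4 (adjusted p 0.0586 to 0.0892). MS4A1 (CD20) was above background on 2 control arrays and no irradiated array, and was not called. The summed level of the list was 2.18 to 3.61 in the controls and 2.03 to 2.95 after irradiation, and its median was 0.35 within the slides that held both groups.

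Dendritic cell genes had 3 of 13 lower (23.1%, against 2.13% of all genes). None of them was called with array position as a block or within the slides that held both groups. They were led by CLEC9A, a receptor of dendritic cells that take up dead cells (-2.25 ± 0.68, adjusted p = 0.0373). Its groups overlapped, and its call was lost without control replicate 2, 3 or 4 or irradiated replicate 1 or 4 (adjusted p 0.0751 to 0.118). FCER1A, an IgE receptor chain, fell by 1.64 ± 0.44 (adjusted p = 0.0212) and lost its call without control replicate 3 (adjusted p = 0.0647) or irradiated replicate 1 (0.063). No call was made among 19 T and NK genes (median -0.32), 12 plasma cell genes, 10 mast cell and eosinophil genes or 21 antigen presentation genes. CD3E was at -0.37 to 1.16 in the controls and -0.02 to 0.54 after irradiation (-0.32 ± 0.34), and CD8A changed by -0.51 ± 0.34. Of 18 macrophage genes 1 was higher (5.56%, against 2.55% of all genes). It was VCAN, versican, a matrix proteoglycan that monocytes also make (1.39 ± 0.26, adjusted p = 0.00308), while CD68 changed by 0.06 ± 0.18. Of 29 interferon-stimulated genes none was higher and 1 was lower (3.45%, against 2.13% of all genes). This was RSAD2, viperin (-1.59 ± 0.50, adjusted p = 0.046), whose call was lost without any single array but irradiated replicate 1 (adjusted p 0.056 to 0.138). MX1 changed by 0.06 ± 0.45.

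Some genes with large changes belonged to no list. SPMIP11, named for a sperm microtubule protein, was at -4.27, -4.20, -4.36 and -4.16 in the controls and at -1.31, -1.08, -0.35 and -0.56 after irradiation (3.42 ± 0.47, 10.7-fold, adjusted p = 0.000334). SERPINA2, a serpin, was at 0.63, 0.65, 1.79 and 1.82 in the controls and at -1.31, -1.70, -1.94 and -1.84 after irradiation (-2.92 ± 0.27, 7.57-fold lower, adjusted p = 4.77e-06). Both calls held under all alternatives. PF4V1, a near-copy of PF4, rose by 3.56 ± 0.84 (adjusted p = 0.0113), and SVOPL, a putative transporter, fell by 3.17 ± 0.59 (adjusted p = 0.00281). TCN1, a vitamin B12 carrier, rose by 3.57 ± 1.14 (adjusted p = 0.0478), with irradiated replicate 2 at -3.16 and the others between -0.76 and 1.16, and its call was lost without any single array but that replicate (adjusted p 0.0702 to 0.125). From below background in every control, PIP rose at least 7.44-fold (adjusted p = 0.00332), TMEM211 at least 6.12-fold (0.0124) and TGM3, a transglutaminase, at least 5.76-fold (0.021), and the TGM3 call was lost without control replicate 4 (0.0537) or irradiated replicate 3 (0.0552) or 4 (0.0582). In the other direction C13H2orf74 fell at least 4.02-fold (0.00906) and NSUN7 at least 3.38-fold (0.0074), each above background on 4 control arrays and no irradiated array.

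**Figure D4:**
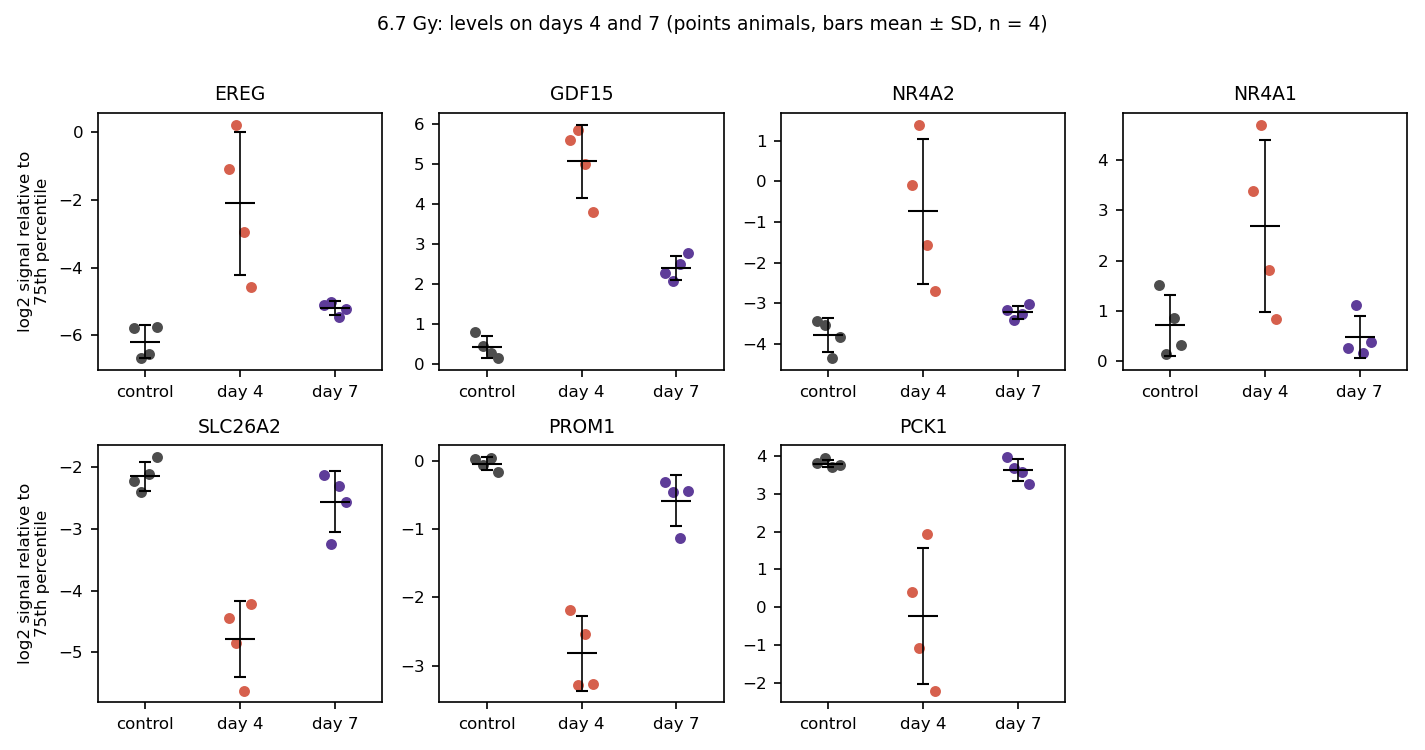
Log2 level relative to the 75th percentile of the array (y axis) in the controls and on days 4 and 7 after 6.7 Gy for 7 genes, points for animals and bars for mean ± SD (n = 4). On day 7 PCK1 lies between 3.26 and 3.97, beside the controls, and GDF15 between 2.06 and 2.77, above the controls and below day 4.

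To see whether the day 4 levels held, they were set against 4 animals taken at day 7 after the same dose. The day 4 arrays enter this comparison too, so a change between the days is not independent of the change against control. Of 35308 probes 691 were called (1.96%), with 402 higher (1.14%) and 289 lower (0.819%) on day 7, and of 12788 genes 309 (2.42%), with 170 higher on day 7 (1.33%) and 139 lower (1.09%). Of the 599 genes called on day 4, 200 (33.4%) had moved back by day 7 with a call of their own, and none (0.0%) had moved further with one. This held for 78 of the 326 higher genes (23.9%) and for 122 of the 273 lower genes (44.7%). The count of called probes fell to 67 with slide as a block, and without day 4 replicate 2 it was 217.

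By list, 8 of 25 colonocyte genes rose from day 4 to day 7. The lists with at least 4 members lower on day 7 were the NF-kB genes (5 of 28), the immediate early genes (4 of 22), the T and NK genes (4 of 19) and the antigen presentation genes (4 of 21), while 3 of 14 enteroendocrine genes and 2 of 8 neutrophil-attracting CXC chemokines and receptors fell. PCK1 was at 3.26 to 3.97 on day 7 (3.86 ± 0.97 above day 4, adjusted p = 0.0283). PROM1 and SLC26A2 rose by 2.24 ± 0.46 (adjusted p = 0.0116) and 2.22 ± 0.59 (adjusted p = 0.035). GDF15 fell by 2.67 ± 0.40 (adjusted p = 0.00395), and all its day 7 values, 2.06 to 2.77, lay between the control and day 4 ranges. EREG, NR4A2 and NR4A1, another nuclear receptor of the immediate early list, fell by 3.09 ± 0.79, 2.48 ± 0.69 and 2.21 ± 0.64 (adjusted p = 0.03, 0.0415 and 0.0495). The NR4A1 and NR4A2 calls were lost without any of several arrays of either day (adjusted p 0.0506 to 0.177), those of EREG, PCK1 and SLC26A2 likewise (0.0551 to 0.113), and that of PROM1 without day 4 replicate 2 (0.0502). The GDF15 call held without every single array.

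Against the 4 animals taken at day 4 after 7.4 Gy, no probe of 35308 was called in limma (0.0%), with 343 at an unadjusted p under 0.05 and at least 2-fold. GDF15 stood at 5.32 ± 0.65 (SD, n = 4) after 7.4 Gy and at 5.06 ± 0.92 after 6.7 Gy, a difference of 0.25 (adjusted p = 0.95). PCK1 was at -1.93 ± 2.03 and -0.24 ± 1.80, and PROM1 at -3.38 ± 1.07 and -2.82 ± 0.55. Neither PCK1 (adjusted p = 0.835) nor PROM1 (adjusted p = 0.897) differed by the test, which does not show that the doses act alike. With array position as a block, 147 probes were called, 120 of them higher after 7.4 Gy. All day 4 arrays of 7.4 Gy lay at position 2, so that count rests on 6.7 Gy replicates 3 and 4.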

How the data were processed

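RNA from colon was hybridised in 1 colour (Cy3) to Agilent rhesus arrays. Scanner intensity values were deposited as Feature Extraction 11.0.1.1 wrote them, per the file headers. The deposited log2 table of the authors, from GeneSpring GX 11.0, held values centred per probe, which differed from the log2 scanner values by at most 2.76e-06 after a constant per probe and per array was removed. The count of arrays limits the precision. From the log2 of the processed signal, the 75th percentile of its own array was subtracted, spots of a probe were averaged, and outlier spots were left out, so some groups have fewer than 4 values. A probe was tested if at least 2 of the 8 arrays had it well above background. One mean per group was fitted over all 24 arrays in limma 3.58.1 (R 4.3.3), with a call at a Benjamini-Hochberg adjusted p under 0.05 and at least 2-fold. Each sample came from a separate animal. The p-values set a change against the spread within groups, pooled over all 24 arrays, in which animal and layout are mixed. Tables were handled in Python 3.11.15, and the fit was tested on simulated data.

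Of 43603 probes, 18640 were named in the files, 332 by accession and 2936 by gene ID, and 19845 had no name. Older symbols of the array were kept. A gene was represented by its brightest tested probe. Genes named in the text were the 12 highest and 12 lowest called genes above background on at least 3 arrays of each group without overlap, up to 6 with a bound in each direction, up to 4 called members of each list in each direction, up to 3 uncalled members, and up to 4 in each direction for the other comparisons. Genes said to be picked after their values were seen lie outside that rule, and some genes that it chose are not reported here. A bound compares the mean of the bright group with the lowest signal well above background on the dim arrays, or the dim signal where that is higher. The samples, lists and alternatives were chosen with earlier results of these data known. Samples with the same number did not deviate together (correlations of -0.07 to 0.06 with the controls and -0.20 to 0.14 in the comparisons with 7.4 Gy and day 7), so numbers were not taken as pairs. Alternatives covered background correction, scaling, filters, blocks for slide, position and scan day, and leaving out each array.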

Additional observations from a re-analysis of the deposited data

Results flagged for a closer look

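In 25 of 381 groups of 4 animals examined, 1 animal stood apart by Dixon's criterion, where chance gives about 1 in 20. Control replicate 1 was the highest for BHLHE40 (-1.60), EGR1 (-3.50), HSD11B2 (8.13), RSAD2 (-0.32) and TIMP1 (3.96), and the lowest for CCNB1 (1.57), CD3E (-0.37), KIF23 (-3.96) and TNIP3 (-5.28). Control replicate 2 was the lowest for BEST2 (0.54) and HMOX1 (2.66). Control replicate 3 was the lowest for BRCA1 (-3.28) and NQO1 (0.97) and the highest for CXCL16 (-2.19). Control replicate 4 was the lowest for CFB (-5.40), FOS (2.96) and MUC2 (4.09), and the highest for CXCL6 (-2.72) and LEF1 (-0.63).

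Among the irradiated animals, replicate 1 was the lowest for CD3E (-0.022). Replicate 2 was the highest for SERPINC1 (-5.67) and VCAN (2.44) and the lowest for SLC5A1 (-2.79). Replicate 4 was the lowest for ASCL2 (-1.79) and TMIGD1 (-7.69).

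In 7 named genes the level on day 7 differed from that on day 4 after 6.7 Gy by the limma test. On the log2 scale the change was -3.09 for EREG, -2.67 for GDF15, -2.48 for NR4A2 and -2.21 for NR4A1. PCK1 rose by 3.86, PROM1 by 2.24 and SLC26A2 by 2.22.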

How the results depend on the processing

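The count of 1437 called probes fell to 776 with normexp background correction, 936 with the 8 arrays alone, 525 with the methods' t-test (1647 before adjustment) and 443 within the slides that held both groups. Leaving out 1 array gave 1185 to 1557, and the other alternatives stayed within 1.5 times the count. Spike-in scaling moved the split from 719 higher and 718 lower to 1385 and 400. With the replicate block 1384 probes were called. The comparison of doses went from 0 calls to 1 with quantile normalization, 2 with slide as a random block, 147 with array position as a block, 1 with the replicate block, 1 with position and scan day as blocks (chosen after seeing the data) and 0 to 21 without 1 array. From day 4 to day 7 the count of 691 fell to 67 with slide as a block, was 217 to 1131 without 1 array, and was 618 with the replicate block, and spike-in scaling turned the split from 402 higher and 289 lower to 291 and 392. Position could not be fitted as a block there.

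Of 144 named genes called, 20 kept the call under all of the 28 alternatives in which they were tested, 108 lost it within the slides that held both groups, 90 with the methods' t-test, 48 each with slide or position as a block, and 10 with the replicate block. Those slides compare irradiated replicates 3 and 4 with control replicates 1 and 2 alone, and the position block rests on irradiated replicates 1 and 2. Among the 144 genes the sign turned for BCL2L14 only, to 0.027 within those slides. The alternatives reuse the arrays behind the calls, so a kept sign is not a separate check. Among named genes not called, CSF3R (-0.34) turned to 0.51 with the median over its probes, and the sign turned in 58 further pairs of a gene and an alternative. The causes were not tested. Dim probes limit the fold of genes below background in 1 group.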

Other observations

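Genes of the unfolded protein and heat shock responses, not described above, had 4 of 18 higher and 1 lower, and 1 higher and 1 lower with slide as a block. CHAC1, which degrades glutathione under amino acid stress, was at -2.01, -1.38, -2.05 and -1.33 in the controls and at -0.44, -0.19, -0.57 and 0.38 after irradiation (1.49 ± 0.25, adjusted p = 0.00157), without overlap. HSPA5, the main chaperone of the endoplasmic reticulum, rose by 1.02 ± 0.28 (adjusted p = 0.0241), and HSPB1, a small heat shock protein, fell by 1.20 ± 0.28 (adjusted p = 0.0103). The list had 2 higher without control replicate 1 or irradiated replicate 2 and 1 without control replicate 3, and the HSPA5 call was lost without control replicate 1 or 3 or irradiated replicate 1 (adjusted p = 0.0507, 0.0717 and 0.0506). The HSPB1 change came below 2-fold without irradiated replicate 4 (-0.94).

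Of 24 prostaglandin and leukotriene genes 1 was higher and 1 lower. HPGD, which inactivates prostaglandins, fell from between 1.68 and 2.77 to between -0.31 and 0.65 (-2.01 ± 0.48, adjusted p = 0.0116), and TBXAS1, thromboxane synthase, rose by 1.29 ± 0.26 (adjusted p = 0.00417). Among 16 clock genes 1 was higher and 2 were lower, and neither of the lower was called with spike-in scaling. BHLHE40, a repressor, rose by 1.39 ± 0.27 (adjusted p = 0.00343), and ARNTL, an activator of the clock, fell by 1.0 ± 0.29 (adjusted p = 0.0304), a call lost without control replicate 2, 3 or 4 or irradiated replicate 1 or 3 (adjusted p 0.0561 to 0.101).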
